A study of Mus musculus with 12 samples.

Results

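The transcripts that build and guard chromosome ends were examined in mouse *Brca2*-mutant medulloblastoma. The set comprised 10 genes of the 24091 in the deposited expression table, chosen by name. They were *Tert* and *Dkc1* of telomerase, the shelterin genes *Terf1*, *Terf2*, *Terf2ip*, *Tinf2*, *Acd*, *Pot1a* and *Pot1b*, and *Atrx*. All 10 were present in the table and passed the expression filter in each of the 5 comparisons. The data came from poly(A) RNA sequencing of 12 flash-frozen samples in 4 groups of 3. Tumor samples were medulloblastomas of 3 Brca2-mut;Trp53-mut mice (GB344, GB359 and GB370), with adjacent cerebellum taken from each of these mice, collected when the mice reached a humane endpoint. The 6 control samples were cerebellum of tumor-free mice, 3 of them Brca2-mut;Trp53-WT (GB361, GB508 and GB512) and 3 Brca2-WT;Trp53-mut (GB517, GB519 and GB520), taken in the study at P90. In these mice the *Brca2* deletion of exons 3 and 4 is made by a Cre recombinase under the human *GFAP* promoter, which acts in the developing brain, whereas the *Trp53* null allele is present in every cell. Tumors and adjacent cerebellum carried both mutations, so they share a genotype, while the control genotypes carry a single mutation each and differ from each other at both loci.

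Telomerase is a reverse transcriptase that copies an RNA template, *Terc*, onto chromosome ends. TERT is its catalytic subunit, and dyskerin, encoded by *Dkc1*, binds the H/ACA domain of the RNA together with NOP10, NHP2 and GAR1 and also works in small nucleolar RNPs that modify ribosomal RNA. Shelterin covers the telomeric repeats: TRF1 (*Terf1*) and TRF2 (*Terf2*) bind the double-stranded repeat, RAP1 (*Terf2ip*) is carried by TRF2, TIN2 (*Tinf2*) links the subunits, and TPP1 (*Acd*) brings POT1, the single-strand binding protein, which mice encode in the genes *Pot1a* and *Pot1b*. ATRX is a chromatin remodeler that deposits histone H3.3 at telomeres with DAXX and is known for limiting recombination-based telomere lengthening.

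The members lay on several chromosomes of the mouse build GRCm38.p6 (mm10). *Tert* spanned chr13:73626911-73649843, *Dkc1* chrX:75095854-75109776, *Terf1* chr1:15805546-15844052 and *Atrx* chrX:105797615-105929372. *Terf2*, *Terf2ip* and *Acd* were all on chromosome 8, at chr8:107069400-107096548, chr8:112011359-112020528 and chr8:105698155-105701228. *Tinf2* was at chr14:55676208-55682159, *Pot1a* at chr6:25743940-25809277 and *Pot1b* at chr17:55651190-55712647. Promoter windows from RefSeq were found for 9 of the 10 genes, and *Terf1* was not matched. They run from 250 bases before the first transcribed base of a particular transcript to 50 bases after it. That base need not be the end of the gene span given above. The printed bases of *Tinf2* lie within its span, and those of *Pot1a* and *Pot1b* overlap the ends of theirs. The upstream 250 bases are shown for *Dkc1*, the one member called in tumors, for *Tert*, and for 3 shelterin genes whose transcripts were higher in tumors. Some of the motif matches counted below can be seen in place there. Matches in the other genes, and those after the first transcribed base, such as the ETS core of *Pot1b*, are not shown. Letters in capitals mark matches, on either strand, to a GC box (GGGCGG), an ETS core (CCGGAA) or a pattern of 4 runs of at least 3 G separated by 1 to 7 bases, which is the usual search pattern for a G-quadruplex.
*Dkc1*, chrX:75095604-75095853, plus strand: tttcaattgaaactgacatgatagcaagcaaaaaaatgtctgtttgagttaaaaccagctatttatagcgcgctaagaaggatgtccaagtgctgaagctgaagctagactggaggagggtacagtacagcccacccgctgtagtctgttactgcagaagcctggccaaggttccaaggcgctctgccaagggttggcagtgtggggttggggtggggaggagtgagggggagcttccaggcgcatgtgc
*Tert*, chr13:73626661-73626910, plus strand: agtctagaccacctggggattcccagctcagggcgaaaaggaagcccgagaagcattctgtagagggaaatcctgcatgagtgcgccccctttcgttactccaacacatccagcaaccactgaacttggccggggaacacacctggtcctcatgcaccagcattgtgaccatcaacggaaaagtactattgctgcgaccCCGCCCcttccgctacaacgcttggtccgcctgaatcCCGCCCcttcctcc
*Tinf2*, chr14:55681818-55682067, minus strand: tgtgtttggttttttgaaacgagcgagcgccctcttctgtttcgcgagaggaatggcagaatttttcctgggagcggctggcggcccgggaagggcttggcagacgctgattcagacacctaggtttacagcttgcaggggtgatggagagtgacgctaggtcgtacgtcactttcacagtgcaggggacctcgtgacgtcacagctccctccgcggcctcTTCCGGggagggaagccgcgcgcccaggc
*Pot1a*, chr6:25809219-25809468, minus strand: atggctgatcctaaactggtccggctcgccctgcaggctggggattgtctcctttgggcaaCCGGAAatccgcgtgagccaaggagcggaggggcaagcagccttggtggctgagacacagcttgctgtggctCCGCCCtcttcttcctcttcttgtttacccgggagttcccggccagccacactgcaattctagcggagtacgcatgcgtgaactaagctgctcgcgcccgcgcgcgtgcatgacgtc
*Pot1b*, chr17:55712637-55712886, minus strand: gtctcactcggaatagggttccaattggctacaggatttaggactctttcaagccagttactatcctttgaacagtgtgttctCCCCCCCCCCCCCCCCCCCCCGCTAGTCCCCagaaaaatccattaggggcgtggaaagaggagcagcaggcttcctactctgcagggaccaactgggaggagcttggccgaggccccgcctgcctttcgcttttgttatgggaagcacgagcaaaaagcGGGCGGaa
The *Dkc1* window held none of these matches, and *Tert* held 2 GC boxes. Over the whole 300-base windows, the GC box occurred in 5 of the 9 genes (*Tert*, *Terf2*, *Terf2ip*, *Pot1a* and *Pot1b*), against 38.2% of 27025 genes. The ETS core occurred in 5 of the 9 (*Terf2ip*, *Tinf2*, *Acd*, *Pot1a* and *Pot1b*), against 16.7% of all genes. The G-quadruplex pattern occurred only in *Pot1b* among the 9, on the strand opposite to transcription in a tract that includes an unbroken run of 21 C, against 20.4% of all genes. The E-box CACGTG was found in none of the 9, against 8.09% of all genes. The motifs overlapped in no printed window. These are matches of letters and not measured binding sites.

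Expression was measured as TPM, a relative abundance corrected for the length of each transcript and for the size of the library, so levels can be set side by side between genes. Below, the 3 values of the tumors and of the adjacent samples are always given in the order GB344, GB359 and GB370. The table holds no read counts, and the depth behind each value is unknown. Each library had between 15088 and 15803 genes at 1 TPM or more. A single entry, *Mir6236*, named after its values were seen, took a share of the summed TPM that differed between libraries. The lowest share was 4.25% in adjacent GB359 and the highest was 11.5% in control GB508, and tumors had 4.39% to 7.32%. The gene-level TPM of the targeted genes does not check the genotypes: *Brca2* was 8.22 to 14.6 TPM in tumors and 3.24 to 4.40 TPM in controls, and *Trp53* was 124 to 130 TPM in tumors, 47.1 to 49.4 TPM in Brca2-WT;Trp53-mut cerebellum and 33.1 to 37.2 TPM in Brca2-mut;Trp53-WT cerebellum. The tissue labels were checked with marker genes. In tumors all 10 Purkinje cell markers, 9 of 10 granule neuron markers and all 8 oligodendrocyte markers were lower than in controls, and 7 of 10 granule cell progenitor markers were higher, by the thresholds of the study defined below. By the same thresholds 4 of 8 microglia markers were higher, and their summed level was 363 to 591 TPM in tumors, 157 to 360 TPM in adjacent cerebellum and 125 to 265 TPM in controls. Of 8 astrocyte and Bergmann glia markers 6 were lower and 1 was higher, and 3 of 6 endothelial markers were lower. At an adjusted p under 0.05 with no minimum fold change, 2 other endothelial markers were higher and 1 other microglia marker was lower. The 15 proliferation markers were all higher, with log2 fold changes from 2.10 for *Tyms* and 2.52 for *Pcna* to 6.06 for *Mki67* and 6.71 for *Top2a*, and their summed level was 1972 to 2478 TPM in tumors and 127 to 228 TPM in controls. In adjacent cerebellum this sum was 885 TPM in GB344, 662 TPM in GB359 and 192 TPM in GB370. The adjacent samples of GB344 and GB359 thus lay above every control by this sum. The summed granule cell progenitor markers were 1583.5, 1429.1 and 941.2 TPM in adjacent cerebellum, 673.7 to 916.3 TPM in controls and 2689.4 to 3178.8 TPM in tumors. By the progenitor sum every adjacent sample, GB370 included, lay above every control. Choroid plexus markers also separated the controls, at 3969 to 5191 TPM in Brca2-WT;Trp53-mut samples and 19.5 to 878 TPM in Brca2-mut;Trp53-WT samples.

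The first comparison asked which of the 10 genes differ between tumors and tumor-free cerebellum of both control genotypes. *Dkc1* rose, by 2.69-fold in mean TPM, and 6 of the 7 shelterin genes rose by smaller amounts, between 1.48-fold and 1.61-fold. *Terf2ip* alone among the shelterin genes fell, to 0.703 of the control mean. *Tert* stayed near 1 TPM in both, and *Atrx* did not pass the test. The test was limma's moderated test of log2(TPM + 1), adjusted by Benjamini-Hochberg over 16241 genes. A gene was called when its adjusted p was under 0.01 and its log2 fold change was 1 or more in size, which are the thresholds of the study. By that rule 1 of 10 members was called, *Dkc1*, beside 14.4% of all genes called higher and 21.5% called lower. At an adjusted p under 0.05 with no minimum fold change, 7 members were higher and 1 was lower, and the background was 31.8% higher and 39.5% lower. No tumor overlapped a control for the same 7 higher members and the 1 lower member, as for 28.3% and 35.7% of all genes. Counted in either direction, 8 of 10 members passed this rule, close to the 71.3% of all genes. The median log2 fold change of the members was 0.55, beside -0.11 over all genes tested. In bulk tissue, fewer cells that make a transcript and less RNA per cell cannot be told apart, and the part of cell type or proliferation in these differences was not tested.

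**Figure D1:**
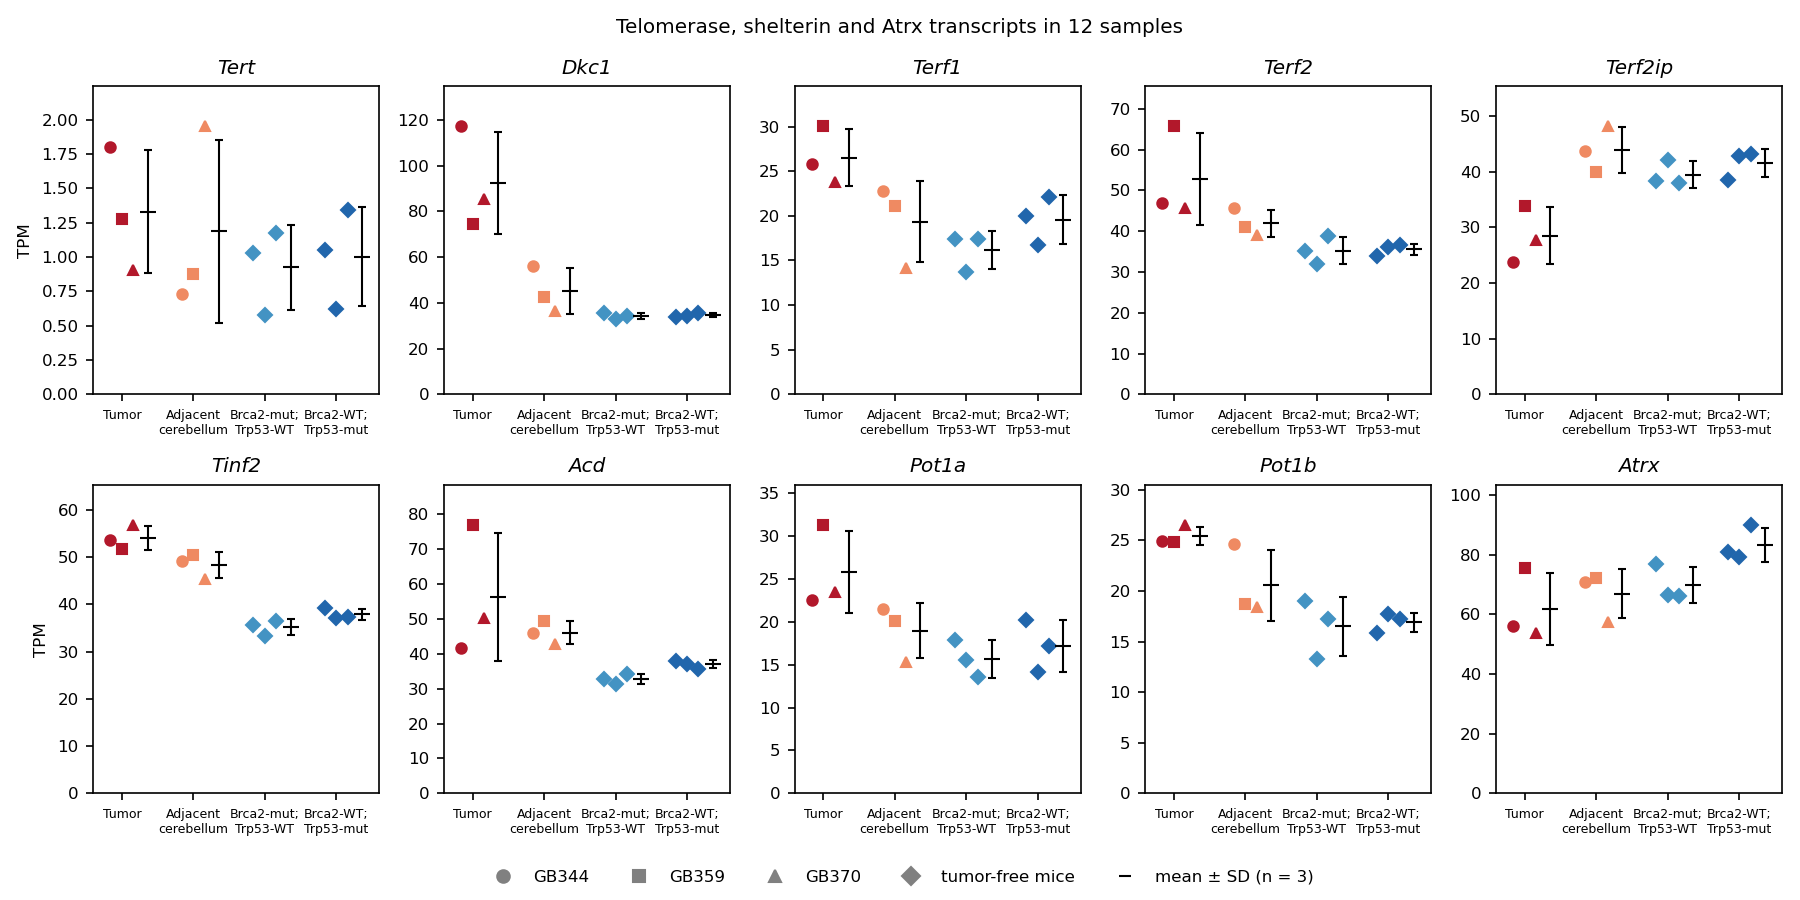
TPM of the 10 genes in each of the 12 samples, one panel per gene with its own y axis from 0. Points are samples (circle GB344, square GB359, triangle GB370, diamonds tumor-free mice) and bars are the mean ± SD of 3 samples. *Dkc1* was at 74.5 to 117 TPM in tumors and 32.9 to 35.7 TPM in controls, whereas *Tert* overlapped among all groups and *Terf2ip* was lowest in the tumors.

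*Tert* was measured at 1.80, 1.28 and 0.909 TPM in tumors. The adjacent cerebellum of the same mice had 0.733, 0.875 and 1.95 TPM, and the 6 controls had a lowest value of 0.575, a median of 1.04 and a highest of 1.34 TPM. The groups overlapped, and the highest value of all 12 samples was in an adjacent sample. Tumors differed from controls by a log2 fold change of 0.24 ± 0.18 (SE), with a 95% interval from -0.16 to 0.64 (limma, adjusted p = 0.244). The interval does not reach the called minimum of 1, but at levels of about 1 TPM the added constant of 1 makes differences on this scale smaller than the ratio of TPM values, which was 1.38 for the means. TPM holds no read counts, so no detection limit is given for *Tert*.

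*Dkc1* had 117, 74.5 and 85.6 TPM in the tumors. Adjacent cerebellum of these mice had 56.2, 42.6 and 36.4 TPM, and the 6 controls lay between 32.9 and 35.7 TPM with a median of 34.3 TPM. Every tumor was above every adjacent sample, and every adjacent sample was above every control. The mean was 92.5 ± 22.2 TPM in tumors (SD, n = 3) and 34.4 ± 1.06 TPM in controls (SD, n = 6). This gave a log2 fold change of 1.38 ± 0.12 (SE), with an interval from 1.10 to 1.65 (limma, adjusted p = 2.9e-06). Against the Brca2-WT;Trp53-mut controls alone, which share the same tumor samples with the pooled comparison, it was 1.37 ± 0.17 (limma, adjusted p = 0.000402). The *Dkc1* annotation shares 45 of its 4121 exonic bases with *Mpp1* on the opposite strand, and the library kit does not mark strand.

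Among the double-strand repeat binders, *Terf2* reached 47.0, 65.8 and 45.7 TPM in the tumors, 45.7, 41.1 and 39.1 TPM in their adjacent cerebellum and 32.0 to 38.7 TPM in controls. *Terf1* was lower in level, at 25.8, 30.1 and 23.8 TPM in tumors, 22.8, 21.1 and 14.2 TPM in adjacent cerebellum and 13.7 to 22.1 TPM in controls. For both genes no tumor overlapped a control, and tumor GB359 was the highest of the 3 tumors. The log2 fold change over controls was 0.55 ± 0.12 (SE) for *Terf2* (limma, adjusted p = 0.00192). For *Terf1* it was 0.55 ± 0.14 (SE; limma, adjusted p = 0.00544). The proportion of the 2 genes did not differ beyond the spread between tumors and controls. The log2 ratio of *Terf1* to *Terf2* was -0.98 ± 0.14 in tumors (SD, n = 3) and -0.998 ± 0.21 in controls (SD, n = 6). The difference was 0.02 (two-sided exact permutation test, p = 0.893, where the smallest p for 3 against 6 samples is 0.0119). By genotype, the control mean was -1.13 in Brca2-mut;Trp53-WT and -0.87 in Brca2-WT;Trp53-mut cerebellum.

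*Terf2ip*, whose product is carried to telomeres by TRF2, differed in direction from the other shelterin genes. It was measured at 23.7, 33.9 and 27.8 TPM in the tumors. Adjacent cerebellum had 43.7, 39.9 and 48.2 TPM, and controls had a lowest value of 37.9, a median of 40.4 and a highest of 43.3 TPM. Every tumor was below every non-tumor sample, while adjacent and control cerebellum overlapped. The log2 fold change was -0.51 ± 0.11 (SE), with an interval from -0.75 to -0.26 (limma, adjusted p = 0.00188), so the whole interval lay short of a halving. As a description chosen after the values were seen, the ratio of *Terf2ip* to *Terf2* TPM was 0.504, 0.515 and 0.609 in the 3 tumors, 0.957 to 1.23 in adjacent cerebellum and 0.978 to 1.32 in controls.

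The linker *Tinf2* had the smallest standard error of the shelterin genes that rose. It had 53.5, 51.7 and 56.7 TPM in the tumors, 49.1, 50.5 and 45.3 TPM in adjacent cerebellum and 33.2 to 39.2 TPM in controls. Tumors and adjacent samples were both above every control, and each tumor was above each adjacent sample by a small margin. Over controls, tumors had a log2 fold change of 0.55 ± 0.08 (SE; limma, adjusted p = 7.55e-05). *Tinf2* shares 1540 of 4938 exonic bases with *Gmpr2* on the opposite strand, and reads within the shared bases cannot be assigned by strand. *Gmpr2*, which encodes a guanosine monophosphate reductase, was also higher in tumors, at 50.3 to 72.5 TPM against 29.5 to 34.8 TPM in controls. Its highest tumor was GB344, whereas that of *Tinf2* was GB370. The part of shared reads in the *Tinf2* value was not tested.

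*Acd*, whose product recruits POT1 and telomerase, was the most variable shelterin gene among tumors. Its level was 41.7, 76.9 and 50.2 TPM in the tumors, 45.9, 49.4 and 42.8 TPM in adjacent cerebellum and 31.4 to 38.0 TPM in controls. All tumors and all adjacent samples were above the controls, but tumor GB344 was below its own adjacent tissue. The log2 fold change of tumors over controls was 0.63 ± 0.16 (SE; limma, adjusted p = 0.00521). Without tumor GB359 it was 0.39 ± 0.11 (SE). *Acd* shares 1208 of 3625 exonic bases with *Carmil2* on the opposite strand. *Carmil2* was also highest among the tumors in GB359, at 90.5 TPM, against 32.6 TPM in GB344 and 40.2 TPM in GB370. Its level was 71.0 to 89.7 TPM in adjacent cerebellum and 67.5 to 86.2 TPM in controls, so tumors GB344 and GB370 lay below every control for *Carmil2* and above every control for *Acd*. The part of shared reads in the *Acd* value was not tested.

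The single-strand binders *Pot1a* and *Pot1b* were expressed at similar levels. *Pot1a* had 22.5, 31.3 and 23.5 TPM in the tumors, 21.5, 20.1 and 15.3 TPM in adjacent cerebellum and 13.5 to 20.2 TPM in controls. *Pot1b* had 24.9, 24.9 and 26.5 TPM in tumors, 24.6, 18.7 and 18.4 TPM in adjacent cerebellum and 13.3 to 19.0 TPM in controls. Tumors did not overlap controls for either gene, and *Pot1a* again had its highest tumor value in GB359. The log2 fold change over controls was 0.62 ± 0.15 (SE) for *Pot1a* (limma, adjusted p = 0.00362). For *Pot1b* it was 0.58 ± 0.11 (SE; limma, adjusted p = 0.000843). The log2 ratio of *Pot1a* to *Pot1b* was 0.00 ± 0.28 in tumors (SD, n = 3) and -0.03 ± 0.28 in controls (SD, n = 6), which did not differ beyond the spread (two-sided exact permutation test, p = 0.845).

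The makeup of the shelterin transcripts shifted with *Terf2ip*. Summed over the 7 shelterin genes, expression was 269 ± 39.8 TPM in tumors, 239 ± 15.1 TPM in adjacent cerebellum (SD, n = 3 each) and 198 ± 9.95 TPM in controls (SD, n = 6). *Terf2ip* made up 9.90% to 10.9% of this sum in tumors, 16.6% to 21.6% in adjacent cerebellum and 18.7% to 23.3% in controls. By mean level it was the first of the 7 in controls, ahead of *Tinf2* in 5 of 6 samples, and the fourth in tumors, behind *Acd*, *Tinf2* and *Terf2*. In tumors the means of *Acd*, *Tinf2* and *Terf2* lay between 52.8 and 56.3 TPM with overlapping samples, and *Terf2ip*, *Terf1*, *Pot1a* and *Pot1b* lay between 25.4 and 28.5 TPM, each overlapping the next. In all groups *Tert* was the lowest of the 10 members with no overlap with the next. *Atrx* was the highest in each non-tumor group, without overlap, whereas *Dkc1* had the highest mean in tumors and overlapped *Atrx*.

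**Figure D2:**
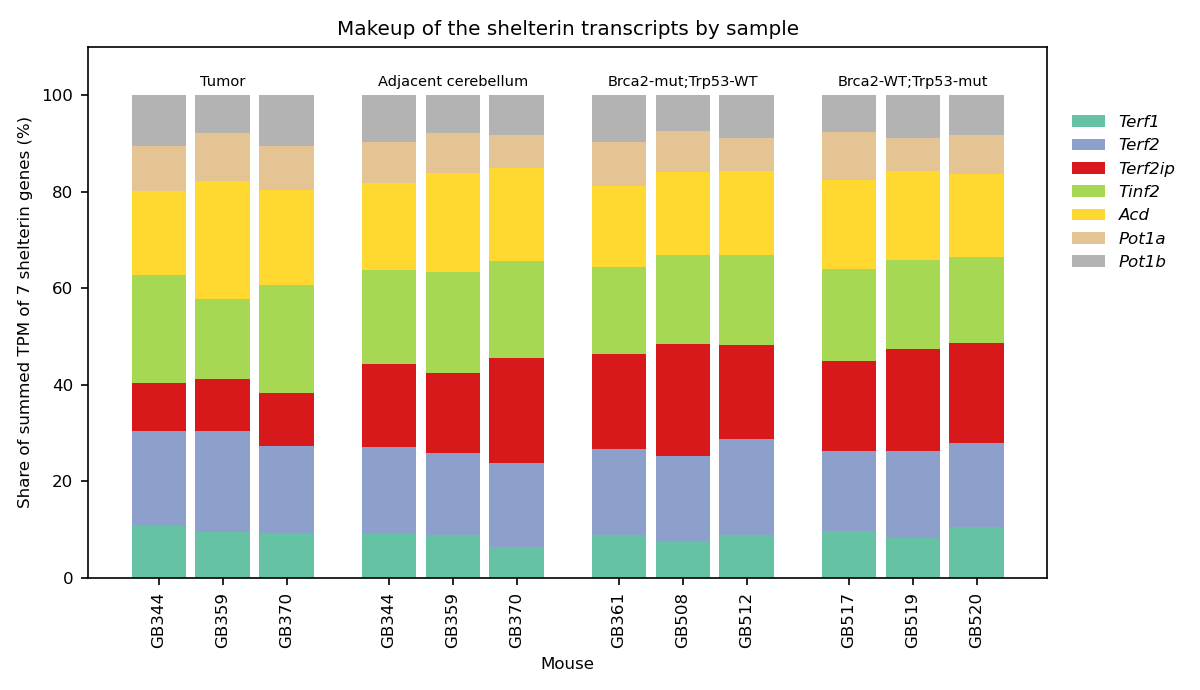
Share of each shelterin gene in the summed TPM of the 7 genes (y axis, percent) for each mouse (x axis), in the 4 groups. *Terf2ip* (red) took 9.90% to 10.9% in the tumors and 16.6% to 23.3% in the other samples.

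*Atrx* was measured at 56.0, 75.6 and 53.8 TPM in the tumors. Adjacent cerebellum had 71.0, 72.3 and 57.5 TPM. Brca2-mut;Trp53-WT cerebellum had 76.8, 66.6 and 66.3 TPM, and Brca2-WT;Trp53-mut cerebellum had 80.8, 79.3 and 89.9 TPM. The 3 tumors were below every Brca2-WT;Trp53-mut sample, but tumor GB359 lay within the range of the Brca2-mut;Trp53-WT samples. Against both control genotypes the log2 fold change was -0.31 ± 0.13 (SE), with an interval from -0.61 to -0.02 (limma, adjusted p = 0.0524). Against Brca2-WT;Trp53-mut cerebellum alone it was -0.44 ± 0.15 (SE; limma, adjusted p = 0.0340), one of 2 members that were lower at an adjusted p under 0.05 there, with *Terf2ip*. In that comparison 6 members were higher, beside 27.5% of 15970 genes that were higher and 38.1% that were lower. Without GB517, GB519 or GB520 the count of members at this threshold fell from 8 to 5, 3 or 4. The share of all genes in either direction went from 65.6% to 57.6%, 56.1% or 56.5%. *Dkc1* was again the only member called by the thresholds of the study, beside 13.5% of genes called higher and 22.3% called lower.

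The second comparison set tumors against the adjacent cerebellum of the same mice. *Dkc1* was 2.05-fold higher in mean TPM and *Terf2ip* was at 0.648 of the adjacent mean, and no other member passed the test. For *Dkc1* the log2 fold change was 1.02 ± 0.22 (SE), with an interval from 0.49 to 1.55 (limma, adjusted p = 0.00949), which makes it 1 of 10 members called, beside 4.76% of 15845 genes called higher and 18.0% called lower. The 755 genes called higher fell to 189 without tumor GB370, 275 without tumor GB359, 458 without tumor GB344 and 210 without adjacent GB359. Without any one of 5 of the 6 samples, or with other analysis settings given at the end, *Dkc1* kept its direction and was not called. For *Terf2ip* the log2 fold change was -0.62 ± 0.17 (SE; limma, adjusted p = 0.0200), and the adjusted p was no longer under 0.05 without adjacent GB344, adjacent GB370 or tumor GB370, with the direction kept. At an adjusted p under 0.05 with no minimum fold change, 18.1% of genes were higher and 32.2% lower, against 1 and 1 of the 10 members. With median-of-ratios scaling 7 members passed this threshold (*Dkc1*, *Terf1*, *Terf2*, *Tinf2*, *Pot1a* and *Pot1b* higher, *Terf2ip* lower), beside 25.4% of all genes higher and 27.4% lower. With quantile normalization 6 did, without *Terf2ip*, beside 29.6% of all genes higher and 24.6% lower. Among the genes called by the thresholds of the study, the share that was higher in tumors moved from 20.9% to 34.4% and 42.2% under these scalings. Within mice, the log2 difference of tumor minus adjacent TPM + 1 for *Dkc1* was 1.05 in GB344, 0.79 in GB359 and 1.21 in GB370. *Terf1*, *Terf2*, *Tinf2*, *Pot1a* and *Pot1b* were also higher in the tumor in 3 of 3 mice, with differences between 0.02 and 0.70, and their adjusted p values were 0.111 to 0.279. *Terf2ip* was lower in 3 of 3 mice, by -0.86, -0.23 and -0.77. *Tert* and *Acd* were higher in 2 of 3 mice and *Atrx* in 1 of 3. *Dkc1* and the 5 shelterin genes named were the 6 members with every tumor above every adjacent sample, and *Terf2ip* was the 1 with every tumor below, beside 23.7% and 38.9% of all genes.

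The third comparison asked whether adjacent cerebellum of tumor-bearing mice differs from tumor-free cerebellum. *Tinf2* rose, by a log2 fold change of 0.39 ± 0.07 (SE; limma, adjusted p = 0.0132), and so did *Acd*, by 0.39 ± 0.08 (SE; limma, adjusted p = 0.0181). They were the 2 members with an adjusted p under 0.05, where 10.1% of 16091 genes were higher and 5.57% lower. By the thresholds of the study 0 members were called (limma), and 0.236% of all genes were called in either direction. These calls were 36 higher and 2 lower, against 51 and 7 with median-of-ratios scaling and 41 and 18 with quantile normalization. They were 564 and 22 without adjacent GB370, 1 and 1 without adjacent GB344, 11 and 29 without adjacent GB359, and 0 to 7 higher and 0 lower without any one control. *Dkc1* had a log2 fold change of 0.36 (limma, adjusted p = 0.0583) and *Terf2* had 0.24 (limma, adjusted p = 0.0660). For *Tinf2*, *Acd*, *Dkc1* and *Terf2* every adjacent sample lay above every control, which held in this direction for 11.7% of genes. For *Atrx*, adjacent GB370 was below the control range. The order of *Dkc1* among the adjacent samples, with GB344 first and GB370 last, was also the order of their summed proliferation markers. *Terf1*, *Terf2*, *Pot1a* and *Pot1b* had this order too. By contrast, *Tinf2*, *Acd* and *Atrx* were highest in adjacent GB359, and *Tert* and *Terf2ip* in adjacent GB370. Among the tumors the order differed: GB344 had the highest *Dkc1*, at 117 TPM, and the lowest proliferation sum, at 1972 TPM. The part of dividing cells in these values was not tested. Without adjacent GB344 no member had an adjusted p under 0.05, beside 1.59% of all genes in either direction. Without adjacent GB359 only *Tinf2* did, beside 5.60%. Without adjacent GB370 4 members did (*Acd*, *Dkc1*, *Terf2* and *Tinf2*), beside 23.7%. With all samples the share of all genes was 15.7%.

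The fourth comparison set the control genotypes against each other. Of the 10 members 0 were called (limma) and 0 had an adjusted p under 0.05. The background was likewise small, at 0.0578% of 15575 genes called in either direction and 0.456% with an adjusted p under 0.05. The calls over all genes were 2 higher and 7 lower, against 2 and 2 with median-of-ratios scaling and 2 and 1 with quantile normalization. *Atrx* was lower in Brca2-mut;Trp53-WT than in Brca2-WT;Trp53-mut cerebellum by -0.25 ± 0.08 (SE) on the log2 scale, with an interval from -0.45 to -0.06 (limma, adjusted p = 0.168). For *Acd* the difference was -0.17 ± 0.07 (SE; limma, adjusted p = 0.234). *Atrx*, *Acd* and *Tinf2* did not overlap between the genotypes, all lower in Brca2-mut;Trp53-WT, as were 20.3% of all genes. *Dkc1* was 34.3 ± 1.41 TPM and 34.5 ± 0.89 TPM in these genotypes (SD, n = 3 each), and the interval of its log2 difference ran from -0.17 to 0.15. The choroid plexus markers given above differed between the same samples, and all 10 Purkinje cell markers were higher in Brca2-mut;Trp53-WT samples without overlap. Their part in the *Atrx* and *Acd* values was not tested.

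**Figure D3:**
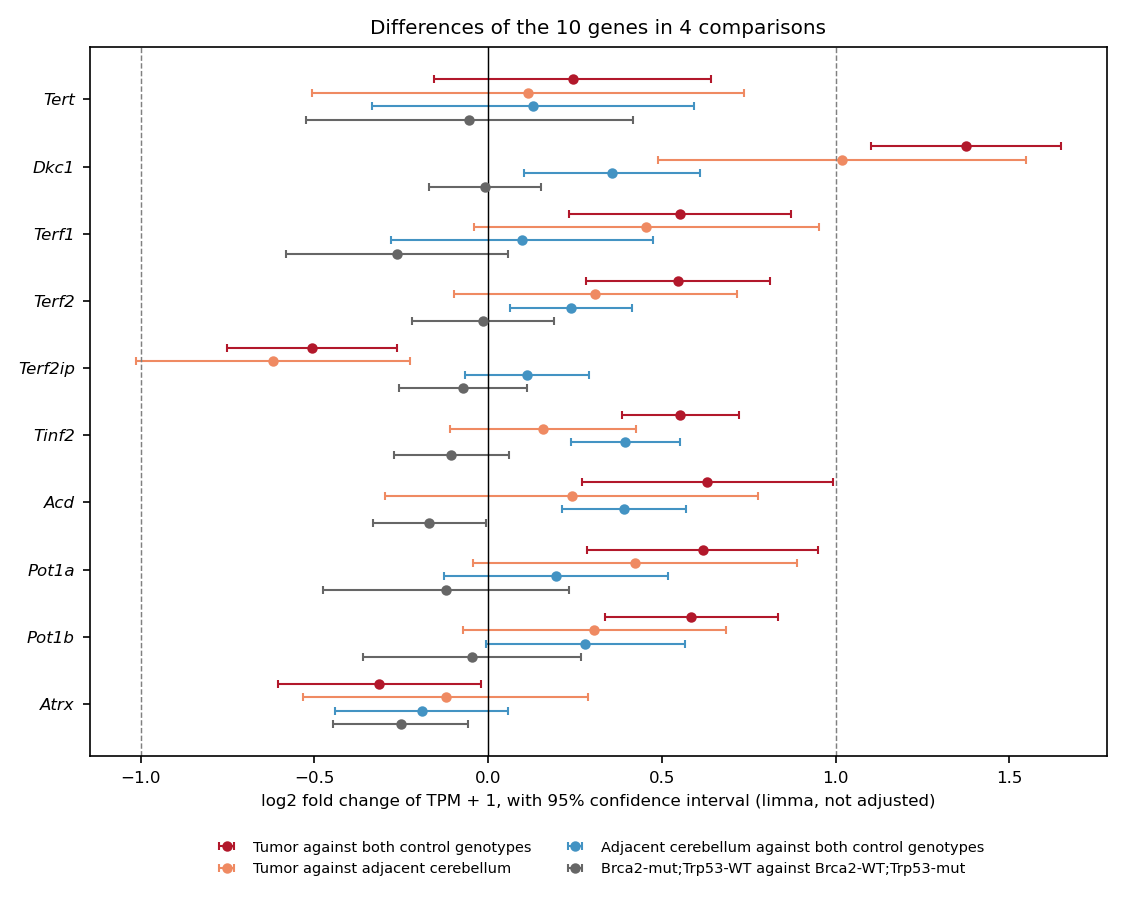
Log2 fold change of TPM + 1 (x axis) of the 10 genes (y axis) in 4 comparisons, as points with 95% confidence intervals from limma that are not adjusted for multiple testing. Dashed lines mark the minimum of 1 in either direction, and *Dkc1* in tumors, at 1.38 over controls and 1.02 over adjacent cerebellum, is the one gene whose points lie beyond it.

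Genes that work with the members or in related processes were followed in lists. Of 11 genes of telomerase assembly and recruitment, 10 were tested between tumors and controls, 9 rose at an adjusted p under 0.05 and 0 fell, beside 31.8% and 39.5% of all genes, and 5 were called higher, beside 14.4%. The median log2 fold change was 1.27. The 2 largest belonged to the partners of dyskerin in the H/ACA particle. *Nhp2* was 234 ± 23.3 TPM in tumors and 46.9 ± 4.02 TPM in controls, with a log2 fold change of 2.29 ± 0.10 (SE; limma, adjusted p = 2.38e-08). *Gar1* was 123 ± 8.94 TPM and 24.8 ± 2.27 TPM, with a log2 fold change of 2.27 ± 0.09 (SE; limma, adjusted p = 2.37e-08). The third partner, *Nop10*, named after its values were seen, rose by 0.96 ± 0.16 (SE; limma, adjusted p = 0.000343). The smallest called changes were those of *Shq1*, which encodes a chaperone of dyskerin, at 1.59 ± 0.14 (SE; limma, adjusted p = 3.15e-06), and of *Ruvbl1*, an ATPase of particle assembly, at 1.62 ± 0.10 (SE; limma, adjusted p = 2.66e-07). These proteins also serve ribosomal RNA modification, so the list is not specific to telomeres. The telomerase RNA gene *Terc* did not pass the filter against controls, and its RNA is not a typical target of poly(A) selection.

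Against adjacent cerebellum the same list had 7 of 11 genes higher at an adjusted p under 0.05 and 0 lower, beside 18.1% and 32.2% of all genes, with a median of 0.87. *Nhp2* was 1.73 ± 0.19 (SE) higher on the log2 scale (limma, adjusted p = 0.000578). *Gar1* was 1.65 ± 0.28 (SE) higher (limma, adjusted p = 0.00354). In adjacent cerebellum against controls, 3 of 10 rose, beside 10.1% of all genes, among them *Nhp2* by 0.56 ± 0.13 (SE; limma, adjusted p = 0.0262). Between the control genotypes 0 of 10 passed.

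Of 18 measured genes of telomere replication and end protection, 10 were higher and 2 lower in tumors than in controls at an adjusted p under 0.05, beside the same 31.8% and 39.5% of all genes. By the thresholds of the study 3 of the 18 were called higher, a share near the 14.4% of all genes, and the median was 0.57. The 2 largest were *Xrcc5*, which encodes the Ku80 subunit of the end-joining factor Ku, and *Fen1*, the flap endonuclease of lagging-strand synthesis. *Xrcc5* was 61.3 ± 3.16 TPM in tumors and 15.6 ± 1.06 TPM in controls (log2 fold change 1.91 ± 0.09 SE; limma, adjusted p = 3.28e-08). *Fen1* was 62.0 ± 2.80 TPM and 20.1 ± 1.31 TPM (log2 fold change 1.58 ± 0.08 SE; limma, adjusted p = 6.53e-08). The third gene called was *Ctc1* of the CST complex, which acts in fill-in synthesis of the telomeric C strand, with 1.08 ± 0.19 (SE; limma, adjusted p = 0.000392). The 2 that fell, named after their values were seen, were *Rif1*, a regulator of replication timing, by -0.41 ± 0.15 (SE; limma, adjusted p = 0.0299), and the CST gene *Ten1*, by -0.28 ± 0.11 (SE; limma, adjusted p = 0.0466), and tumors overlapped controls for both. Against adjacent cerebellum 4 of the 18 were higher (*Xrcc5*, *Fen1*, *Rad50* and *Mre11a*) and 0 lower, beside 18.1% and 32.2% of all genes, with a median of 0.30.

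Unlike *Atrx*, most genes of the list named after ATRX, DAXX and H3.3 rose in tumors. In the list of 15 genes around ATRX, DAXX and H3.3, 12 were higher and 1 lower in tumors than in controls at an adjusted p under 0.05, beside 31.8% and 39.5% of all genes. Of these 7 were called higher, beside 14.4%, and the median was 0.80. *Daxx*, the H3.3 chaperone that works with ATRX, was 41.2 ± 1.96 TPM in tumors and 25.4 ± 1.89 TPM in controls (log2 fold change 0.68 ± 0.09 SE; limma, adjusted p = 4.59e-05). The largest differences were in *Asf1b*, a histone chaperone of dividing cells, at 3.45 ± 0.18 (SE; limma, adjusted p = 6.32e-08), and in *Cbx3*, an HP1 protein, at 1.90 ± 0.16 (SE; limma, adjusted p = 1.71e-06). The smallest called changes were 1.13 ± 0.12 (SE) for *Cbx5*, another HP1 protein (limma, adjusted p = 1.3e-05), and 1.33 ± 0.15 (SE) for *Pml*, the scaffold of nuclear bodies that hold DAXX (limma, adjusted p = 1.88e-05). The 1 that fell was *Smarcal1*, which encodes an annealing helicase, by -0.37 ± 0.10 (SE; limma, adjusted p = 0.00777). *Daxx* and *Smarcal1* were named after their values were seen. Against adjacent cerebellum 8 of the 15 were higher and 1 lower, beside 18.1% and 32.2% of all genes, with a median of 0.77. Of 5 measured genes of meiotic telomere proteins, 2 passed the expression filter and neither passed the test between tumors and controls.

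**Figure D4:**
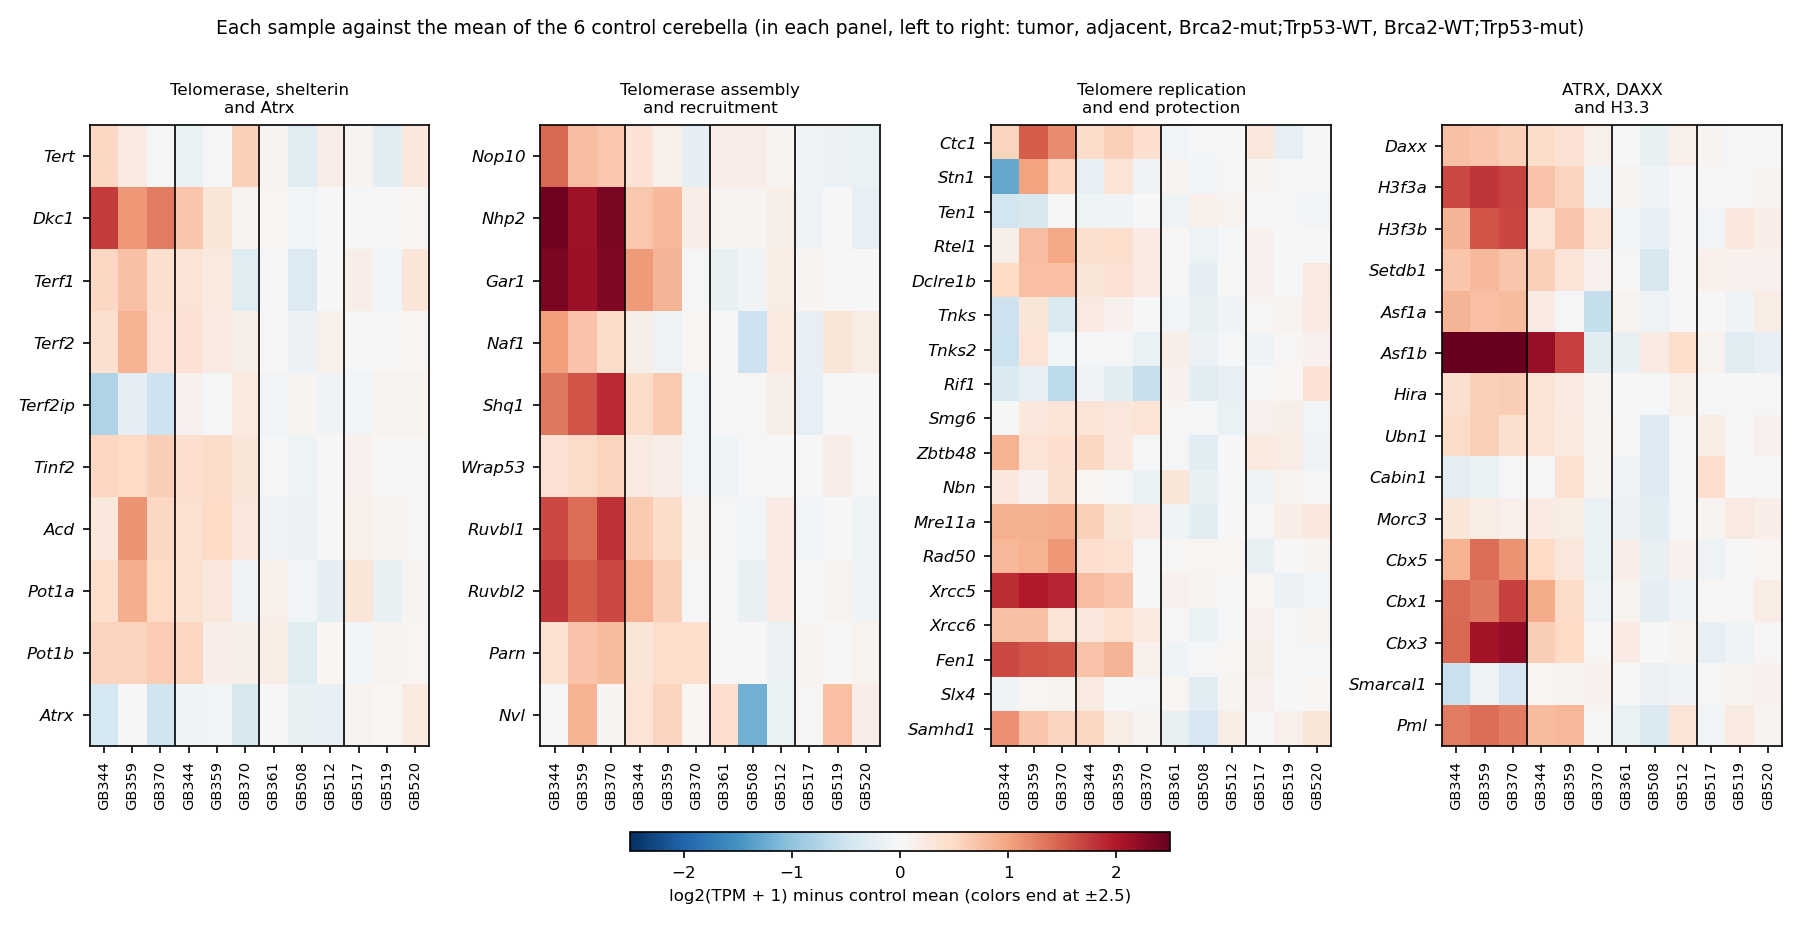
Difference of log2(TPM + 1) from the mean of the 6 control cerebella (color, ending at 2.5 in either direction) for the 10 genes and 3 lists of related genes (rows) in 12 samples (columns), with *Terc* left out. Columns in each panel run from tumors and adjacent cerebellum to the control genotypes, and *Nhp2* and *Gar1*, at 2.29 and 2.27 in the tumor mean, exceed *Dkc1* at 1.38.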

How the data were processed

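RNA sequencing data of 12 mouse samples were analysed. Libraries were made with a non-strand-specific NEBNext Ultra II kit, and the sources used here differ on the sequencing site. The authors quantified transcripts with Salmon 0.8.1 on mm10 and summed them to genes, and the deposited unit is TPM for 24091 genes, which holds no counts, so depth and counting error are unknown.

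Fold changes are on the log2(TPM + 1) scale, which understates changes of genes with low TPM. A gene entered a comparison if 3 or more of its samples reached 1 TPM. The test was limma 3.58.1 in R 4.3.3, with a linear fit to only the groups compared and empirical Bayes moderation with an intensity trend. Calls required an adjusted p (Benjamini-Hochberg, all genes tested) under 0.01 and a log2 fold change of 1 or more in size, and counts at an adjusted p under 0.05 are given beside these. Ratios of 2 genes were tested by exact permutation, which cannot go below p = 0.1 with 3 against 3 samples. Each sample is 1 mouse except that tumor and adjacent tissue share mice. The mouse numbers in the sample titles pair them. Same-mouse deviations correlated at 0.23, 0.15 and 0.15 across 16498 genes, and those of different mice at -0.14 to 0.015. Deviations from a mean of 3 samples depend on each other, so these values alone cannot settle the pairing. Data were simulated from these libraries with genes changed by 1.5 or 2.5 on the log2 scale, 100 of each. In tumor against controls 82 and 97 of these were called among 16241 genes, with 2 false calls. In tumor against adjacent cerebellum 46 and 84 were called among 15845 genes, with 2 false calls. The changed genes were drawn only from levels well above that of *Tert*, most genes were left unchanged, and noise was independent between genes. The counts therefore do not describe recovery of low genes such as *Tert*, or data in which most genes differ.

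The members and gene lists were chosen with earlier results of these data known. In the list around ATRX, DAXX and H3.3, 1 gene is not reported here and was left out of the counts after its values were seen. Named genes are the members, the 2 largest and 2 smallest called changes of each list, *Brca2*, *Trp53*, the 3 genes most like each of 4 members, and genes marked as named after their values were seen, including the overlapping genes *Gmpr2*, *Carmil2* and *Mpp1*. Positions and promoters are from RefSeq on GRCm38.p6, and exon overlaps from GENCODE on the same build. Tables were handled in pandas 2.3.3, permutations in scipy 1.17.1 and plots in matplotlib 3.10.9 (Python 3.11.15). Alternatives changed the pseudocount, filter, scaling, trend, groups in the fit, control group, threshold or mouse block, or left out 1 sample.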

Additional observations from a re-analysis of the deposited data

How the results depend on the processing

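The call of *Dkc1* in tumors held under every alternative tried against both control genotypes and against Brca2-WT;Trp53-mut cerebellum. With an adjusted p under 0.05 and no minimum fold change, the count of members went from 1 to 8 in each of these comparisons, from 1 to 2 against adjacent cerebellum and from 0 to 2 in adjacent cerebellum against controls. Against adjacent cerebellum 0 members were called with a pseudocount of 0.1 or 0.01, no filter, or eBayes without a trend, and 0 to 1 without single samples (the call of *Dkc1* was kept only without adjacent GB344). There the log2 fold change of *Dkc1* without single samples was 0.836 to 1.204, with adjusted p values of 0.00885 to 0.0348. With the mouse as a block, 1 member was called against adjacent cerebellum, as without it. Over all genes the block moved the calls from 755 higher and 2852 lower to 701 and 2841. Of the 3607 calls without the block, 3264 were kept.

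Counts at an adjusted p under 0.05, an alternative chosen after seeing the data, ranged over samples left out from 3 to 7 against Brca2-WT;Trp53-mut cerebellum, where all samples gave 8 (the 3 was without GB519). The share of all genes ranged there from 56.1% to 68.8%, with 65.6% for all samples. Against adjacent cerebellum the counts ranged from 1 to 2, beside 38.2% to 47.3% of all genes. There median-of-ratios scaling gave 7 and quantile normalization 6, beside 52.8% and 54.3% of all genes in either direction (50.4% without scaling). In adjacent cerebellum against controls the counts ranged from 0 to 4, beside 1.59% to 23.7% of all genes. The count there was 1 when all 4 groups were in a fit (9.81% of all genes) and 0 with Brca2-WT;Trp53-mut as the control group (1.05%). Scaling moved the calls over all genes against adjacent cerebellum from 755 higher and 2852 lower to 1296 and 2476 (median-of-ratios) or 1603 and 2192 (quantile), and the median of all genes from -0.14 to 0.025 or 0.12.

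Directions turned only for values that had not passed the test. *Atrx* against adjacent cerebellum became 0.059 (median-of-ratios) and 0.074 (quantile). Between the control genotypes, median-of-ratios scaling gave 0.074 for *Dkc1*, 0.068 for *Terf2*, 0.011 for *Terf2ip* and 0.034 for *Pot1b*, and quantile normalization gave 0.081, 0.070, 0.013 and 0.049, and 0.040 for *Tert*. In adjacent cerebellum against controls, *Terf1* became -0.025 (quantile) and -0.034 (Brca2-WT;Trp53-mut controls). Without single samples the ranges that crossed 0 were, against adjacent cerebellum, -0.033 to 0.35 for *Tert* and -0.0056 to 0.43 for *Acd*. Between the control genotypes they were -0.20 to 0.083 for *Tert*, -0.037 to 0.021 for *Dkc1*, -0.083 to 0.052 for *Terf2* and -0.15 to 0.094 for *Pot1b*. In adjacent cerebellum against controls they were -0.030 to 0.29 for *Terf1* and -0.11 to 0.28 for *Tert*. For the log2 ratio of *Pot1a* to *Pot1b* they were -0.17 to 0.17 (tumor against Brca2-WT;Trp53-mut), -0.13 to 0.12 (both controls), -0.040 to 0.23 (adjacent) and -0.25 to 0.091 (control genotypes). For *Terf1* to *Terf2* they were -0.038 to 0.094 (tumor against both controls) and -0.23 to 0.017 (adjacent against controls). The causes were not tested. *Tert* did not pass a minimum of 5 TPM and has no value there.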

Other observations

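The genes most like 4 of the members in their pattern over the 12 samples were listed by Pearson correlation of log2(TPM + 1) among 16241 genes. The samples share tumor and tissue groups, so these are descriptions of the same group differences. For *Dkc1* they were *Foxa2* (r = 0.996), *Rbbp4* (r = 0.994) and *Ms4a6d* (r = 0.994). *Foxa2*, a forkhead transcription factor, was at 20.1 TPM in the tumor mean, 1.17 TPM in adjacent cerebellum and 0.172 and 0.0376 TPM in Brca2-mut;Trp53-WT and Brca2-WT;Trp53-mut cerebellum. *Rbbp4*, a histone-binding protein of several chromatin complexes, was at 170 TPM in tumors and 57.8 to 80.2 TPM in the means of the other groups. For *Terf1* they were *Pcgf3* (0.962), *Cpsf6* (0.957) and *Zfp451* (0.953), and for *Atrx* they were *Akap9* (0.960), *Ltn1* (0.934) and *Rif1* (0.933). For *Tert* the values were lower, at 0.827 for *Gm20172*, 0.816 for *Foxf1* and 0.793 for *Snord67*, and all 3 had group means under 4 TPM.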
